A study of Mus musculus with 18 samples.

Results

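The noncoding RNA table of mouse testis held 33433 transcripts, of which 3517 (10.5%) were newly assembled transcripts without a gene symbol. They were chosen by an identifier that starts with MSTRG and by a lone hyphen in the place of the symbol. No count or FPKM was used to choose them, but a transcript assembled from reads is in the set only because it had reads. In an identifier such as MSTRG.18073.2 the first number names a locus and the second a transcript within it. A locus is described here by its transcripts in this set alone, and any others it may hold were not counted. Each row of the MSTRG form lacked a symbol, and the other 29916 rows carried an Ensembl transcript identifier and are called annotated transcripts here. RNA was measured in whole testis of adult C57BL/6 mice. There were 3 libraries of the wild type and 3 of a Taf7l knock-in, in which an edited allele replaces the gene at its own place, and all 6 shared strain, tissue and library kit. Taf7l is an X-linked gene whose protein resembles TAF7, part of the TFIID complex at gene promoters, and is made in germ cells. The comparison asks how coding and noncoding RNA of the testis differ with the edited allele. No label says which animal a library came from, so the spread behind each p-value is that among libraries and may in part be technical.

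Transcript assembly joins overlapping spliced reads into transcript models and keeps those that match no known transcript as new ones. The testis transcribes an unusually broad part of the genome, and much of that output in meiotic and postmeiotic germ cells is long noncoding RNA that is little conserved and often made from a single locus in several spliced forms. Most such transcripts have no known function, and the labels give no role for the identifiers described here. Because a whole testis is a mixture of germ cells and somatic cells, fewer cells of a type and less RNA per cell cannot be told apart in any of the values.

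The noncoding table held from 1384224 to 1647421 counts per library, and the assembled transcripts from 571360 to 680960. Markers of spermatids, spermatocytes, spermatogonia, Sertoli cells, Leydig cells, peritubular myoid cells, macrophages, endothelium, erythrocytes and epididymis were read from the mRNA table, and 1 of their genes, the spermatid protamine Prm2, was called changed (edgeR quasi-likelihood test, log2 fold change 0.53, adjusted p = 0.0289). Prm2 was higher in each knock-in library, at 1720, 1520 and 1430 CPM (counts scaled to the library's total) against 2340, 2000 and 2390. CPM of these coding genes were scaled within the mRNA table. Those of assembled transcripts given below were scaled within the noncoding table, so the values cannot be compared across the tables. The transition protein gene Tnp1 had the same log2 fold change (adjusted p = 0.0859) and the protamine gene Prm1 had -0.31 (adjusted p = 0.303), and neither passed the test. The summed level of the 5 Leydig markers was 1040 to 1190 CPM in the wild type against 1220 to 1230 in the knock-in. That of the 4 peritubular markers was 154 to 177 CPM against 181 to 208. The sums of the other 8 lists overlapped between the genotypes. The part of these cell types in the values of the assembled transcripts was not tested.

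Nearly all assembled transcripts were present in every library. Of the 3517, 3235 (92.0%) had at least 1 count in each of the 6 libraries, 109 (3.1%) in 5 of them and 43 (1.22%) in a single one, and none was at 0 throughout. Of the annotated transcripts, 8196 (27.4%) were detected in all 6 libraries and 10604 (35.4%) in none. A transcript that was assembled from reads must have reads somewhere, whereas an annotation lists transcripts of all tissues, so this contrast is a description and was not tested. Which libraries entered the assembly is not given in the sources used here.

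**Figure D1:**
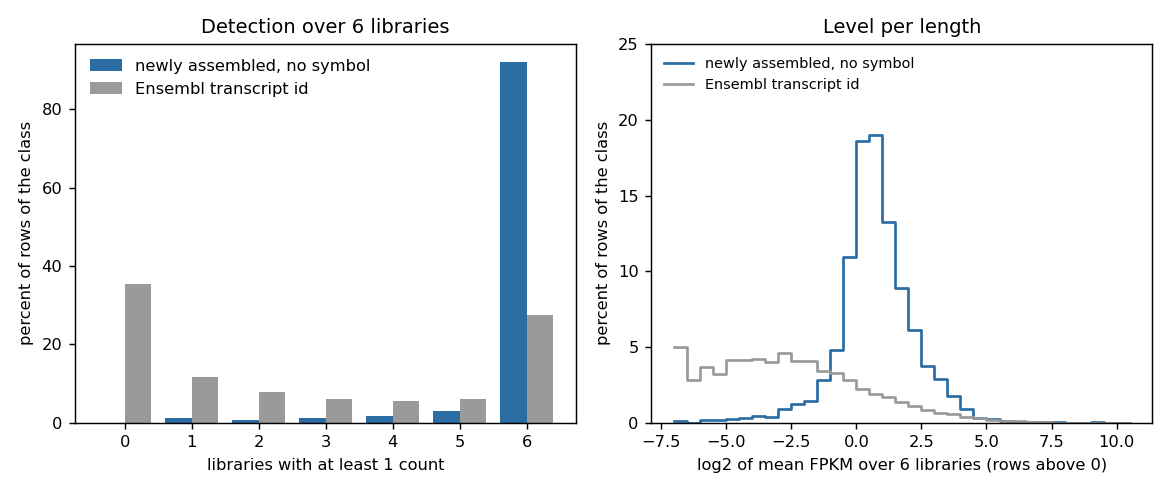
Left, bars give the percent of rows of each class by the number of libraries (0 to 6) with at least 1 count; right, lines give the percent of rows of each class by log2 of the mean FPKM over 6 libraries, in bins, for rows above 0. The assembled transcripts (blue) pile up at 6 libraries (92.0%) and around a median of 1.59 FPKM, while the annotated rows (grey) spread over all numbers of libraries and lower levels.

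Detection overlapped between the genotypes. At least 1 count was found for 96.87%, 96.19% and 96.5% of the assembled transcripts in the wild type, against 96.82%, 97.01% and 97.13% in the knock-in. The means were 96.52% ± 0.342 and 96.99% ± 0.158 (SD, n = 3 each), a difference of 0.464 percentage points (exact permutation test over libraries, two-sided, p = 0.2). The smallest p that 3 libraries against 3 can give is 0.1. Wild-type library 1 lay above knock-in library 1. At 10 or more counts the share was 87.08% ± 0.673 against 88.58% ± 1.1, a larger difference of 1.5 percentage points (exact permutation test, p = 0.2). Counts at either cut were not corrected for depth. Knock-in library 3, the deepest with 1647421 noncoding counts, had the highest share at 10 or more counts, 89.79%. Wild-type library 3, the shallowest with 1384224, had 86.69%, as did wild-type library 2. The part of depth in the difference was not tested.

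As a group the assembled transcripts made up a large and even share of noncoding RNA. They held 41.71%, 41.02% and 41.28% of the noncoding counts in the wild type, against 40.78%, 41.33% and 41.33% in the knock-in. The means were 41.34% ± 0.35 and 41.15% ± 0.321 (SD, n = 3 each), a difference of -0.192 percentage points that was smaller than the spread between libraries (exact permutation test, two-sided, p = 0.6). Relative to the mRNA and noncoding counts together the share was 3% ± 0.0553 in the wild type against 2.951% ± 0.0296 in the knock-in. The libraries of the genotypes overlapped in both measures.

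The counts were concentrated in few transcripts. The leading assembled transcript held 2.5% of all counts of the 3517, the leading 10 held 15.8%, and the leading 97 held 50.1%. The leading 10 took between 6.18% and 6.77% of the noncoding counts of a library. Among the 100 noncoding rows with the most counts, 47 were assembled transcripts, and among the 10 with the most counts, 6. Ranked by FPKM, the count relative to transcript length and depth, 10 of the first 100 rows and 2 of the first 10 were assembled transcripts.

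Per length, most assembled transcripts were expressed at a low but measurable level. The median of their mean FPKM over the 6 libraries was 1.59, and 2673 (76.0%) reached 1 FPKM. Only 160 (4.55%) reached 10 FPKM. Annotated transcripts above 0 had a median of 0.142 FPKM, with 0.0983 for symbols of the Gm form, 0.297 for symbols of the RIKEN form and 0.143 for other symbols. These levels are a description for the same reason as the detection.

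Counts and FPKM rank the transcripts differently because FPKM divides by length. The ratio of counts to FPKM gives a relative length, set here to 1 at the median of the annotated transcripts with at least 0.5 FPKM. On that scale the 3228 assembled transcripts that could be placed had a median of 1.33, with quartiles of 0.831 and 2.36. The 100 highest by CPM had a median relative length of 12.9, and the 100 highest by FPKM had 1.16, a contrast that follows in part from how the 2 rankings and the relative length are defined.

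**Figure D2:**
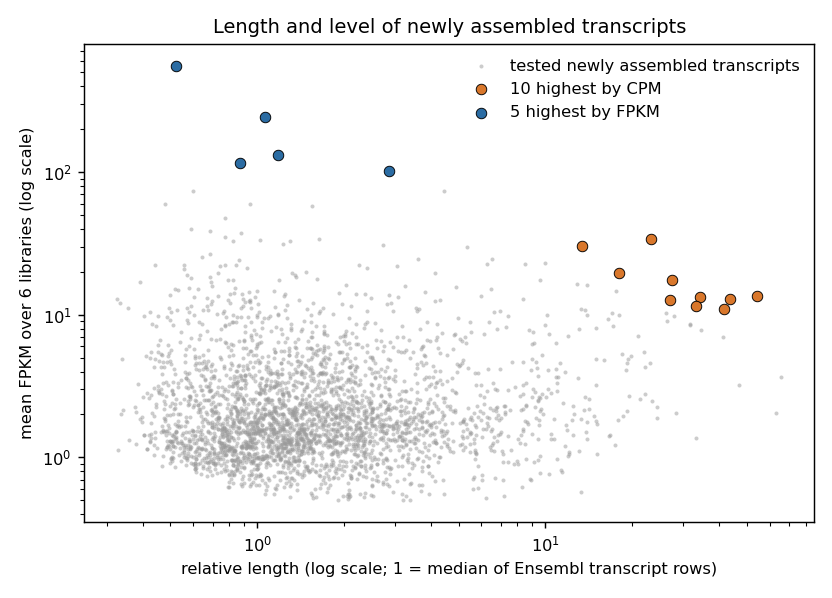
Each point is a tested assembled transcript, with relative length on the x axis (log scale, 1 is the median of annotated transcripts) and mean FPKM over 6 libraries on the y axis (log scale). The 10 highest by CPM (orange) lie at relative lengths from 13.4 to 54.4, and the 5 highest by FPKM (blue) lie between 0.523 and 2.87.

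The transcript with the most counts was MSTRG.18811.1, the only assembled transcript of its locus. It was found 15624, 15055 and 14502 times in the wild-type libraries against 14115, 14916 and 16928 times in the knock-in libraries, which is 34.93, 34.21 and 34.89 FPKM against 31.88, 33.13 and 33.12. The FPKM of the knock-in libraries all lay below those of the wild type, by little: the log2 fold change of knock-in over wild type was -0.06 ± 0.04 (SE; edgeR, adjusted p = 0.70). By counts it ranked 3 among all noncoding rows and per length 158, with a relative length of 23.3.

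MSTRG.18815.1, whose locus number is close to it, had 31.6, 30.39 and 33.3 FPKM in the wild type against 27.38, 29.78 and 29.03 in the knock-in. Its libraries also did not overlap, and its log2 fold change was -0.12 ± 0.05 (adjusted p = 0.551). The pair MSTRG.4943.1 and MSTRG.4945.1 likewise have close locus numbers, and their log2 fold changes were -0.09 ± 0.04 and -0.02 ± 0.05. The pair MSTRG.9396.1 and MSTRG.9398.14 had values of 0.11 ± 0.08 each. Whether close locus numbers mark neighbouring places in the genome was not tested, since positions of these loci were not used here.

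The longest of the leading transcripts was MSTRG.19931.1, with a relative length of 54.4. Its libraries had 13.84, 13.17 and 13.57 FPKM in the wild type against 12.75, 14.18 and 13.6 in the knock-in, so the genotypes overlapped (log2 fold change 0.02 ± 0.05). MSTRG.19906.1 stood at 11.5 ± 0.486 and 11.4 ± 0.575 FPKM (SD, n = 3 each), MSTRG.6432.1 at 13.0 ± 0.323 and 13.5 ± 1.09, and MSTRG.10684.2 at 13.0 ± 0.329 and 12.5 ± 0.513. None of these 10 transcripts with the highest counts passed the test, and their log2 fold changes ran from -0.12 to 0.11.

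Per length MSTRG.416.1 led by far, ranking 2 among all noncoding rows. It had 723.75, 635.67 and 549.31 FPKM in the wild-type libraries and 418.08, 485.39 and 522.51 in the knock-in libraries. Each knock-in library lay below each wild-type library, although the nearest 2, wild-type library 3 and knock-in library 3, were close. The log2 fold change was -0.40 ± 0.12 (SE), a ratio of 0.758, which missed the threshold (edgeR, adjusted p = 0.354). It is short, with a relative length of 0.523.

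The next 4 per length showed no such separation. MSTRG.4574.1, ranking 5 among all noncoding rows, had 262.96, 240.57 and 218.67 FPKM in the wild type against 203.5, 242.31 and 278.46 in the knock-in. Knock-in libraries 1 and 3 were its lowest and its highest value, so the spread within the knock-in spanned the wild type, and the log2 fold change was 0.03 ± 0.12. MSTRG.14126.1 stood at 136 ± 10.7 and 128 ± 11.7 FPKM, MSTRG.7222.3 at 117 ± 3.53 and 113 ± 5.57, and MSTRG.7964.3 at 102 ± 3.15 and 101 ± 4.32 (SD, n = 3 each). The libraries of the genotypes overlapped in each of the 3.

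The test between the genotypes covered 3155 of the 3517 assembled transcripts (89.7%), and the other 362 had total counts from 1 to 280 with a median of 32.5. None of the 3155 passed the threshold for a call, an adjusted p under 0.05 (edgeR quasi-likelihood test, Benjamini-Hochberg adjustment over all 9301 noncoding transcripts tested). Over all tested noncoding transcripts the share called was 0.0968%, 9 of 9301, and those 9 were all annotated. At an unadjusted p under 0.05 stood 253 assembled transcripts, 8.02% of those tested, beside 8.97% of all. Of the 253, 134 were higher in the knock-in (4.25%, beside 4.81% of all) and 119 lower (3.77%, beside 4.16%). Other tools differed in the count: DESeq2 called 17 assembled transcripts of 3407 (0.499%, beside 0.923% of all rows it tested), limma on log2 FPKM called 1 (0.0317%, beside 0.247% of all), and edgeR without the filter on low counts called 16 of 3517 (0.455%, beside 0.565% of all). By the authors' deposited table an adjusted p under 0.05 was given to 16 of the 3517, that is 0.455%, beside 0.499% of all rows above 0.

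Differences were small across the group. The median log2 fold change was 0.02, with quartiles of -0.18 and 0.23, beside 0.00 over all tested transcripts, and 1649 (52.3%) were above 0. Within 1.25-fold of no difference lay 2144 (68.0%), beside 62.5% of all, and within 1.5-fold 2770 (87.8%). A fitted difference of at least 2-fold was found for 106 (3.36%), beside 5.25% of all. Of these, 62 were higher (1.97%, beside 2.97%) and 44 lower (1.39%, beside 2.28%) in the knock-in. Separated libraries, with each knock-in library above or each below all wild-type libraries, were found for 492 (15.6%), beside 16% of all tested noncoding transcripts. The knock-in was higher in 260 of them (8.24%, beside 8.33%) and lower in 232 (7.35%, beside 7.62%). These shares lay close to the background or below it. Among the tested, 13 were below the level the filter asks for in every wild-type library and 8 in every knock-in library, so these had passed the filter through 1 genotype only and had to differ.

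**Figure D3:**
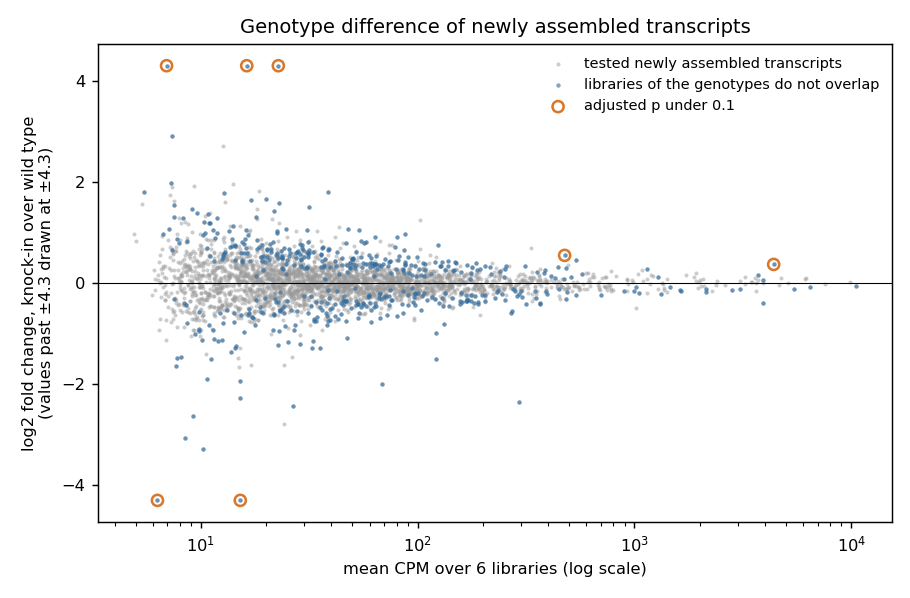
Each point is a tested assembled transcript, with mean CPM over 6 libraries on the x axis (log scale) and the log2 fold change of knock-in over wild type on the y axis, values beyond the axis being drawn at its edge. Blue points are the 492 whose libraries did not overlap between the genotypes, and orange rings mark the 7 with an adjusted p under 0.1, of which 5 were at 0 in 1 genotype.

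The spread between libraries followed the level. The biological coefficient of variation, the spread between libraries of a genotype beyond counting error, had a median of 39.3% for assembled transcripts under 10 CPM, 28.1% from 10 to 30 CPM, 18.4% from 30 to 100 CPM, 12.4% from 100 to 300 CPM and 9.53% above. Annotated transcripts had 39.0%, 29.0%, 19.5%, 13.1% and 9.44% in the same ranges. The median size of the log2 difference fell along the same order, from 0.42 to 0.10 in the assembled transcripts. At least a 2-fold difference was found in 30 of 236 assembled transcripts under 10 CPM and in 0 of 213 above 300 CPM. Over the ranges in order the share was 12.7%, 5.52%, 1.04%, 0.676% and 0% of assembled transcripts. Annotated transcripts had 12.1%, 6.91%, 3.59%, 1.92% and 0.86%.

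The 7 assembled transcripts with an adjusted p under 0.1, a threshold added after the data were seen, were 0.222% of those tested, beside 0.387% of all. Their number fell to between 0 and 2 with any 1 library left out, to 1 with scaling from the mRNA table and to 2 with a filter of a mean of 10 counts. It stayed at 7 with DESeq2 size factors and was 28 without the filter on low counts. Of the 7, 2 were present in every library and are described first. The others were at 0 in 1 genotype and passed the filter on low counts through the other alone. MSTRG.20394.3 was found 537, 572 and 513 times in the wild type against 828, 765 and 926 times in the knock-in. It stood at 5.77, 6.24 and 5.93 FPKM against 8.98, 8.16 and 8.7, so each knock-in library lay well above each wild-type library. The log2 fold change was 0.55 ± 0.08 (SE), a ratio of 1.46, and the adjusted p of 0.0698 missed the threshold (edgeR). With any 1 library left out the adjusted p was between 0.145 and 0.179. It was under 0.05 with edgeR without the filter on low counts (0.0144) and with DESeq2 (2.999e-05), and above 0.05 under every other setting. In the authors' deposited table the adjusted p was 3.301e-05, for a log2 ratio of 0.53.

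MSTRG.2654.1 was among the most abundant assembled transcripts, ranking 18 by counts and 53 per length among all noncoding rows. It had 68.77, 62.56 and 62.11 FPKM in the wild type against 83.77, 80.63 and 81.82 in the knock-in. The knock-in libraries lay close together and all above the wild type, and the log2 fold change was 0.37 ± 0.05 (SE), a ratio of 1.29 (edgeR, adjusted p = 0.0698). Leaving out 1 library at a time gave adjusted p-values from 0.0607 to 0.197. The adjusted p was 0.0177 with edgeR without the filter on low counts and 9.147e-07 with DESeq2, and above 0.05 under every other setting. The authors' deposited table has an adjusted p of 1.007e-06 for it. Both MSTRG.20394.3 and MSTRG.2654.1 are the only transcripts of this set in their loci.

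Another 8 assembled transcripts with counts in every library were called by DESeq2, 7 of which the authors' deposited table also lists under 0.05. They are named here because of those calls, chosen after their values were seen. Each missed the edgeR threshold with the filter on low counts. Without that filter edgeR also called MSTRG.3465.5, MSTRG.6437.1, MSTRG.5059.3, MSTRG.14710.2 and MSTRG.2413.6. It did not call MSTRG.14874.5, MSTRG.21632.1 or MSTRG.2368.3. MSTRG.3465.5 had 290, 316 and 361 CPM in the wild type against 213, 225 and 204 in the knock-in, a log2 fold change of -0.59 ± 0.11 (edgeR, adjusted p = 0.118). MSTRG.6437.1 stood at 161 ± 30.7 and 81.6 ± 14.7 CPM (-0.99 ± 0.19, adjusted p = 0.128) and MSTRG.5059.3 at 64.1 ± 5.16 and 30.01 ± 6.89 CPM (-1.10 ± 0.21, adjusted p = 0.128). These 3 were lower in the knock-in in every library. So was MSTRG.21632.1, a transcript at 1424 ± 39.4 and 1224 ± 35.1 CPM with a small log2 fold change of -0.22 ± 0.06 (adjusted p = 0.28).

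Higher in every knock-in library were MSTRG.14874.5, MSTRG.14710.2 and MSTRG.2413.6. MSTRG.14874.5 had 446, 485 and 434 CPM in the wild type against 556, 630 and 677 in the knock-in (0.45 ± 0.10, adjusted p = 0.156). MSTRG.14710.2 stood at 59.4 ± 14.5 and 115.7 ± 12.9 CPM (0.96 ± 0.19, adjusted p = 0.137). MSTRG.2413.6 stood at 17.2 ± 10.7 and 60.2 ± 17.5 CPM (1.80 ± 0.43, adjusted p = 0.219). All CPM are means ± SD with n = 3 each and the log2 fold changes carry SE from edgeR. MSTRG.14874.5 and MSTRG.2413.6 lie in loci of 3 assembled transcripts each. MSTRG.14710.2, MSTRG.3465.5, MSTRG.6437.1 and MSTRG.21632.1 lie in loci of 2 each. Sums over those loci are not given here, so these single values carry the uncertainty described below for shared loci. The eighth, MSTRG.2368.3, belongs to the largest differences described further on and was called by DESeq2 but not in the authors' deposited table.

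**Figure D4:**
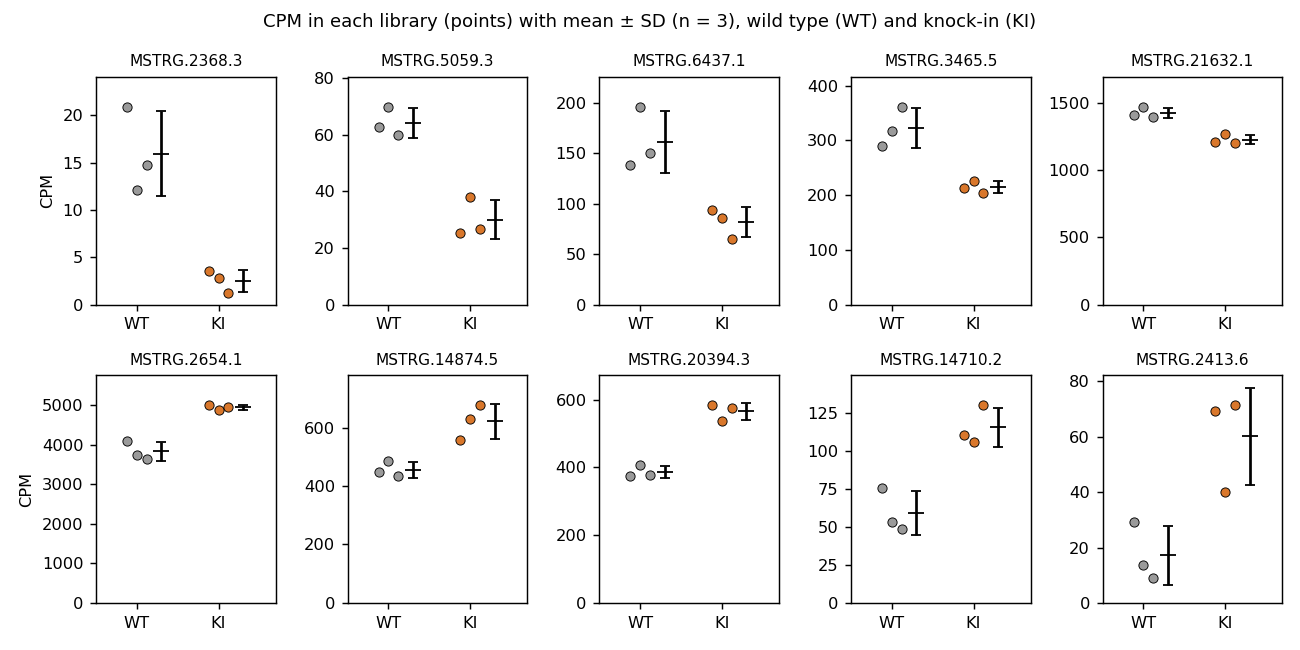
Points give CPM in each of the 3 wild-type (WT, grey) and 3 knock-in (KI, orange) libraries of 10 assembled transcripts with at least 1 count in every library that DESeq2 called, and bars give mean ± SD (n = 3). The genotypes do not overlap in any of the 10, a separation that the choice by calls favours. The difference ranges from MSTRG.2368.3 (15.9 and 2.53 CPM) to MSTRG.21632.1 (1424 and 1224 CPM). MSTRG.2368.3 was below the level the filter asks for in every knock-in library, so its separation was set by the filter.

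Some assembled transcripts were at 0 in each library of 1 genotype and at 3 or more counts in each library of the other. There were 8 among the 3517 (0.227%), 6 of them without counts in the wild type, beside 38 of all rows above 0, and 2 without counts in the knock-in, beside 23. Over all noncoding rows above 0 the share was 0.267%, 61 rows, a share close to that of the assembled transcripts. Of the 8, 7 were called by DESeq2 and have an adjusted p under 0.05 in the authors' deposited table, and 5 were tested with edgeR. The 8 were chosen by these same counts, so the calls are no separate support. The 5 passed the filter on low counts through 1 genotype alone, so their separation was set by the filter. Their adjusted p-values are given as description only. Folds of the 8 transcripts are lower bounds against a floor of 3 counts over the 3 libraries, which covers counting error only.

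MSTRG.18073.2 was at 0, 0 and 0 counts in the wild type but at 119, 45 and 34 in the knock-in, at least 62.2-fold higher (edgeR, adjusted p = 0.0931). MSTRG.18073.1 of the same locus was at 0 in the wild type but at 27, 19 and 15 counts in the knock-in, at least 19.1-fold higher. The sum over the locus did not show this separation. Its 6 assembled transcripts together had 1896, 1460 and 1631 counts in the wild type against 1810, 1960 and 2188 in the knock-in, and the genotypes overlapped (log2 fold change 0.17 ± 0.09, adjusted p = 0.629). Absent from the wild-type libraries, MSTRG.18073.2 made up 6.57%, 2.3% and 1.55% of the locus counts in the knock-in and MSTRG.18073.1 1.49%, 0.969% and 0.686%.

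The other 4 transcripts of locus MSTRG.18073 carried nearly all of its counts. MSTRG.18073.5 led with 1141, 702 and 771 counts in the wild type against 939, 982 and 1108 in the knock-in, between 47.3% and 60.2% of the locus. Its wild-type library 1 was the highest of all 6 and its wild-type library 2 the lowest. MSTRG.18073.3 followed at 328 ± 32.4 and 343 ± 64.5 CPM, then MSTRG.18073.4 at 135 ± 50.6 and 164 ± 29.3 CPM and MSTRG.18073.6 at 104 ± 17.4 and 90.5 ± 18.2 CPM (SD, n = 3 each). Their log2 fold changes were 0.06 ± 0.15, 0.29 ± 0.27 and -0.20 ± 0.20 (SE), and each overlapped between the genotypes.

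MSTRG.15453.3 showed the opposite order, with 21, 37 and 68 counts in the wild type against 0, 0 and 0 in the knock-in, at least 44.6-fold lower (edgeR, adjusted p = 0.0843). Its share of the locus was 9.21%, 15.2% and 33.7% in the wild-type libraries. The other assembled transcript there, MSTRG.15453.1, had 207, 206 and 134 counts against 196, 189 and 247, and was lowest in wild-type library 3, where MSTRG.15453.3 was highest. Summed, the locus had 228, 243 and 202 counts in the wild type against 196, 189 and 247 in the knock-in, which overlapped (log2 fold change -0.18 ± 0.12, adjusted p = 0.696).

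MSTRG.16275.8 was found 19, 19 and 15 times in the wild type and not at all in the knock-in, at least 18.8-fold lower (edgeR, adjusted p = 0.0877). It is 1 of 6 assembled transcripts of a weakly expressed locus with 134, 115 and 108 counts in the wild type against 116, 75 and 148 in the knock-in (log2 fold change -0.17 ± 0.21). Several of the others were also at 0 in single libraries. MSTRG.16275.7 had 0, 42 and 16 counts in the wild type against 37, 38 and 69 in the knock-in, MSTRG.16275.2 had 30, 0 and 19 against 25, 6 and 0, and MSTRG.16275.9 had 3, 5 and 0 against 0, 0 and 26. MSTRG.16275.6 had 48, 25 and 33 counts against 13, 0 and 10, so it was lower in each knock-in library, as MSTRG.16275.8 was. Zeros at this locus were thus found in both genotypes.

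MSTRG.16942.2 and MSTRG.22575.4 did not pass the filter on low counts and were not tested with edgeR. MSTRG.16942.2 had 43, 4 and 14 counts in the knock-in and none in the wild type, at least 19.1-fold higher, while MSTRG.16942.1 of the same locus had 49, 35 and 31 counts against 16, 42 and 24. Their sum of 49, 35 and 31 against 59, 46 and 38 overlapped. MSTRG.22575.4 had 11, 32 and 10 counts in the knock-in and none in the wild type, at least 16.6-fold higher, in a locus with 456, 456 and 473 counts against 463, 433 and 492. The last transcript at 0 in the wild type, MSTRG.21884.6, had 14, 9 and 4 counts in the knock-in and was named after its values were seen.

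MSTRG.11451.2, like MSTRG.21884.6, was the only assembled transcript of its locus. It had 0, 0 and 0 counts in the wild type against 67, 17 and 62 in the knock-in, that is 1.25, 0.31 and 1.01 FPKM. This was at least 45.8-fold higher (edgeR, adjusted p = 0.0931). Its transcript number is 2, and any other transcript of the locus was not analysed here.

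**Figure D5:**
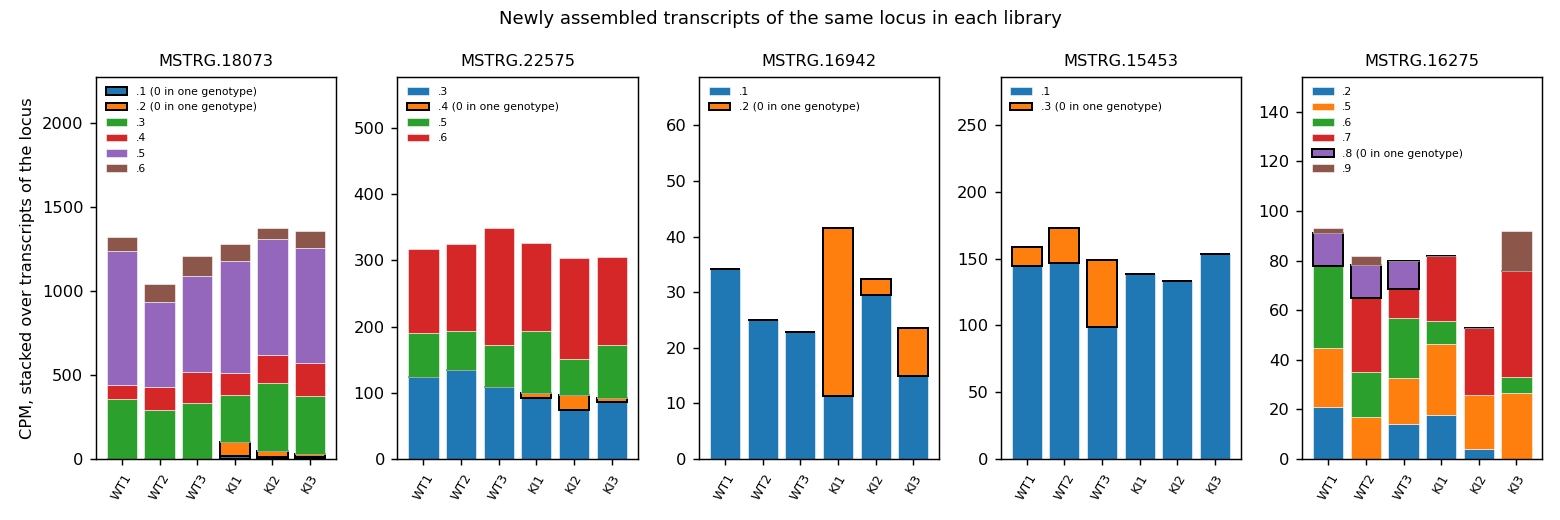
Stacked bars give the CPM of each assembled transcript of 5 loci in the 3 wild-type (WT) and 3 knock-in (KI) libraries, with black outlines around transcripts at 0 in 1 genotype. The outlined segments appear in a single genotype, while the total heights overlap between the genotypes in each of the 5 loci.

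The remaining large differences lay at low counts. Of the 6 tested transcripts with the largest fitted rise among those that did not overlap, MSTRG.22121.2 had 3, 0 and 4 counts in the wild type against 20, 19 and 19 in the knock-in (log2 fold change 2.90 ± 0.73, edgeR, adjusted p = 0.248). Its locus, with another assembled transcript, stood at 191, 225 and 228 counts against 217, 239 and 308. MSTRG.21504.1 had 3, 0 and 9 counts against 18, 13 and 21 (1.98 ± 0.84), and MSTRG.21882.3 had 3, 2 and 5 against 11, 15 and 12 (1.80 ± 0.57). All 3 were below the level the filter asks for in every wild-type library and passed it through the knock-in libraries alone, so their separation was set by the filter and is no finding. With 1 library left out the log2 fold change of MSTRG.22121.2 ran from 2.34 to 3.53 and that of MSTRG.21504.1 from 1.41 to 3.37 (without wild-type library 3).

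Among those lower in the knock-in, MSTRG.15580.14 had 27, 28 and 23 counts in the wild type against 8, 0 and 0 in the knock-in (log2 fold change -3.29 ± 0.97, edgeR, adjusted p = 0.354). MSTRG.14844.3 had 15, 28 and 21 counts against 0, 0 and 8 (-3.07 ± 0.99, adjusted p = 0.392). Both are the only transcripts of this set in their loci. MSTRG.2368.3 had 30, 17 and 20 counts against 5, 4 and 2 (-2.63 ± 0.51, adjusted p = 0.128), but the 3 assembled transcripts of its locus together had 39, 38 and 34 against 40, 30 and 32. MSTRG.5760.5 had 42, 66 and 80 counts against 0, 5 and 33 (-2.44 ± 0.86, adjusted p = 0.436), in a locus with 118, 90 and 89 against 103, 80 and 83. All knock-in counts of MSTRG.14844.3 came from knock-in library 3 and all those of MSTRG.15580.14 from knock-in library 1. Those 2 and MSTRG.2368.3 were below the level the filter asks for in every knock-in library, so their separation too was set by the filter. Leaving out 1 library at a time moved the log2 fold change of MSTRG.14844.3 to between -7.44 and -2.53 and that of MSTRG.15580.14 to between -7.75 and -2.68. The lower end is a fit with the knock-in at 0 throughout, whose value depends on the prior count. For MSTRG.5760.5 the range was -4.61 (without knock-in library 3) to -1.87.

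The loci put these single transcripts in context. The 3517 assembled transcripts came from 2769 loci, of which 2218 held 1 assembled transcript, 412 held 2, 92 held 3, 38 held 4, 7 held 5 and 2 held 6. In 795 loci (28.7%) the highest transcript number exceeded the number of assembled transcripts of the locus, so the numbering within those loci has gaps. Such loci may hold transcripts outside this set, which the sums leave out. With counts summed per locus, 2530 loci were tested and 0 were called changed (edgeR; 10 of all 8676 rows of that fit, 0.115%), with 205 (8.1%) at an unadjusted p under 0.05 and 402 (15.9%) whose libraries did not overlap. Over all noncoding transcripts tested singly these shares were 8.97% and 16%.

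Alone in a locus means here the only transcript of this set there, and the locus may hold others that were not analysed. Transcripts alone in a locus, transcripts that shared one and sums over shared loci differed in level, so their values are set side by side without a test. Of 1984 tested transcripts alone in a locus, with a median of 35.0 CPM, 48 (2.42%) had a fitted difference of at least 2-fold and 28 (1.41%) were at 0 in at least 1 library. Of 1171 that shared a locus, with a median of 40.8 CPM, 58 (4.95%) had such a difference and 68 (5.81%) a library at 0. The 546 shared loci tested as sums had a median of 95.7 CPM, and 1 (0.183%) had a difference of at least 2-fold. Libraries that did not overlap ran in another order, at 16.1% of transcripts alone, 14.7% of those that shared a locus and 15.8% of the sums.

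Within ranges of level the contrast between alone and shared was widest at low levels. Under 10 CPM 8.92% of transcripts alone and 20.3% of those that shared a locus had at least a 2-fold difference, and from 10 to 30 CPM 3.62% and 9.04%. From 30 to 100 CPM the shares were 0.972% and 1.14%, from 100 to 300 CPM 0.376% and 1.12%, and above 300 CPM both were 0. The share with a library at 0 was 8.28% against 30.4% under 10 CPM, 1.67% against 9.3% from 10 to 30 CPM and 0.417% against 1.37% from 30 to 100 CPM. The part of level in the contrast was not tested beyond these ranges.

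The 58 transcripts lay in 49 loci. They were chosen for a large difference of their own, so a smaller one in a sum that holds further counts is a description only. For 40 of the 58 the locus sum was within 1.25-fold of no difference, for 18 it had the opposite sign, and for 1 it also reached 2-fold. Of 475 loci with at least 2 tested transcripts, 283 (59.6%) held transcripts of opposite sign. How reads that fit several transcripts of a locus were counted is not given in the sources used here, so values of single transcripts in shared loci are uncertain.

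Locus MSTRG.8363, with 5 tested transcripts, shows how such values spread where no transcript stood out. Its sum was 1173, 1179 and 1193 counts in the wild type against 1258, 1191 and 1411 in the knock-in, or 846 ± 31.6 and 866 ± 30.9 CPM (SD, n = 3 each), with a log2 fold change of 0.03 ± 0.07 (SE). MSTRG.8363.1 had 69, 77 and 55 counts against 37, 67 and 25 (-0.70 ± 0.37), and MSTRG.8363.2 had 193, 84 and 155 against 172, 36 and 150 (-0.36 ± 0.50). MSTRG.8363.2 was lowest in library 2 of both genotypes. MSTRG.8363.4 (0.18 ± 0.19), MSTRG.8363.3 (0.13 ± 0.18) and MSTRG.8363.5 (0.03 ± 0.13) were on the other side of 0. Every tested transcript of the locus overlapped between the genotypes.

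The small shift of the assembled transcripts varied with their length, and their level varied along with it. With the 3077 tested transcripts that had a relative length, of 3155, split into 5 groups of 615 or 616, the shortest group lay at relative lengths from 0.327 to 0.807, where the median log2 fold change was 0.09 and 58.0% of 616 were above 0. In the longest group, from 2.87 to 65.9, it was -0.03 and 45.3% were above 0. Annotated transcripts of the same lengths had medians of 0.06 and -0.03, so the order was shared by both classes. Measured against the mean over libraries, the shortest group deviated by a median of 0.07, -0.02 and -0.06 on the log2 scale in the wild type against 0.09, 0.04 and 0.08 in the knock-in, and the genotypes overlapped because wild-type library 1 lay above knock-in library 2. In the longest group the values were 0.00, 0.01 and 0.03 against -0.03, 0.02 and 0.00, which overlapped as well. The median level was 15.4 CPM in the shortest group and 140 CPM in the longest. Split by level alone, the median log2 fold change was 0.09 under 10 CPM, 0.07 from 10 to 30 and 0.01 from 30 to 100. It was -0.02 from 100 to 300 CPM and -0.01 above 300 CPM. The parts of length and level in the shift were not tested.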

How the data were processed

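RNA from whole testis was sequenced from stranded total RNA libraries, per the labels' protocols. The deposited noncoding table holds whole-number counts and FPKM per transcript and library, and the deposited log2 ratio, p-value and adjusted p-value are the authors' own comparison. A companion deposited table of mRNA genes gave counts for scaling, markers and the mRNA share. Per the submitters' processing notes, reads were placed on mm10. The aligner, the assembler, the counter, the annotation and the use of strand are not given in the sources that were used here.

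Counts as deposited were tested on the whole noncoding table with the quasi-likelihood test of edgeR 4.0.16 in R 4.3.3 (with limma 3.58.1), TMM scaling, filterByExpr (minimum count 10, minimum total 15), and Benjamini-Hochberg adjustment with calls under 0.05. CPM are counts scaled to library totals corrected by TMM. These totals were taken over the tested rows of the noncoding table for noncoding transcripts, and of the mRNA table for coding genes. CPM from the noncoding and the mRNA table are thus on different scales. SE came from the F statistic. Shares per library were compared by an exact permutation test. DESeq2 1.42.0, limma on log2(FPKM + 0.1), other scalings and filters, sums per locus and left-out libraries were alternatives. The scripts were tested on simulated data. Tables of lengths and loci were made with Python 3.11.15.

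The transcripts, lists and rules were chosen with earlier results of these data known. Named were the 10 highest by CPM, the 5 highest by FPKM, the 6 largest fitted differences each way among those that did not overlap, the 5 smallest p-values, up to 5 each way at 0 in 1 genotype, and all tested transcripts of the 2 loci with most of them. Of the 3 loci tied at 5 tested transcripts, the one with the lowest locus number was taken. Equal replicate numbers were not taken to pair the libraries.

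Pachytene spermatocyte and round spermatid samples and circular RNAs were not analysed here. Coding neighbours were not analysed because positions of the loci were not used. A planned comparison with assembled transcripts that carry a symbol had no members. Taf7l had 27.7, 29.1 and 30.2 CPM in the wild type against 26.0, 27.2 and 27.3 in the knock-in, and counts do not show the edited codon, so it does not check the labels. No library repeated another of its own genotype: chi-square per degree of freedom within a genotype ran from 4.46 to 4.85 over the assembled transcripts. Libraries of different genotypes were not compared in this way.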

Additional observations from a re-analysis of the deposited data

How the results depend on the processing

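No assembled transcript was called under any edgeR setting that kept a filter on low counts: size factors of DESeq2, scaling from the mRNA table, library totals only, a mean of at least 10 counts, sums per locus or any library left out (0 to 0). With every transcript with a count tested, edgeR called 16 of 3517 assembled and 129 of 22829 noncoding transcripts, DESeq2 17 of 3407 and 119 of 12889, and limma on log2(FPKM + 0.1) 1 of 3155 and 23 of 9301, beside 0 and 9. At an adjusted p under 0.1, added after the data were seen, the counts were 7 and 36, and 7 fell to between 0 and 2 with 1 library left out and to 0 with a replicate block. The cause of these differences was not tested. All 16 transcripts of the authors' deposited table were among the 17 of DESeq2, and 14 of them among the 16 of edgeR without the filter.

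With a replicate block, 0 assembled and 2 noncoding transcripts were called, and 222 assembled transcripts had an unadjusted p under 0.05. Correlations of same-numbered libraries were taken on deviations from the mean of each genotype, not on the levels themselves. They were -0.003, 0.013 and -0.021 over noncoding transcripts and 0.153, 0.134 and 0.004 over mRNA genes. Not all passed 0.1, so the numbers were not taken to pair the libraries. Leaving out 1 library gave 6 to 13 noncoding calls, a median log2 fold change of 0.0106 to 0.0293, a difference in share of -0.35 to -0.00401 percentage points and in detection of 0.299 to 0.64. Detection at 10 or more counts differed by 1.5 points. The median was -0.0023 with limma.

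Apart from left-out libraries, the sign of named transcripts turned for values near 0 or by summing loci. MSTRG.19906.1 was at -0.0071 and MSTRG.7964.3 at -0.0076 with mRNA scaling, and MSTRG.7964.3 at -2e-04 with every transcript tested and -3e-04 with DESeq2. With limma MSTRG.19931.1 was at -0.0028, MSTRG.19906.1 at -0.0133, MSTRG.4574.1 at -0.0036 and MSTRG.7964.3 at -0.0168. Summed loci gave 0.0326 for MSTRG.8363.1 and MSTRG.8363.2 and 0.1678 for MSTRG.18073.6. Leaving out 1 library turned the sign of 11 transcripts, whose log2 fold changes ran from -0.0188 to 0.0703 for MSTRG.19931.1, -0.0437 to 0.0172 for MSTRG.4945.1, -0.0277 to 0.0569 for MSTRG.19906.1, -0.0947 to 0.1448 for MSTRG.4574.1 and -0.1429 to 0.0066 for MSTRG.14126.1. The ranges were -0.0648 to 0.0044 for MSTRG.7222.3, -0.0273 to 0.0226 for MSTRG.7964.3, -0.0029 to 0.3461 for MSTRG.18073.5, -0.7816 to 0.0566 for MSTRG.8363.2, -0.0746 to 0.1992 for MSTRG.18073.3 and -0.0692 to 0.1143 for MSTRG.8363.5.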
